A study of Homo sapiens with 6 samples.

Results

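J-domain proteins (also called Hsp40s) are the co-chaperones that bring client proteins to Hsp70 and switch on its ATPase. The genes described here are those with symbols of class A, B or C of this family (DNAJA, DNAJB or DNAJC followed by a number). DNAJB1 and the 5 genes DNAJB9, DNAJB11, DNAJC1, DNAJC3 and DNAJC10 were left out; the 5 encode J proteins of the cycle of BiP, the Hsp70 of the endoplasmic reticulum (ER). This left 37 genes of the 64299 in the deposited count table, 4 of class A, 10 of class B and 23 of class C. The 6 libraries are poly(A) RNA of the human embryonic kidney line HEK293T, which carries the SV40 large T antigen (the series description writes HEK293). The time between transfection and harvest is not given in the labels. A plasmid labelled ERbeta was transfected for 3 of them and an empty vector, EV_Ctrl, for the other 3, with the same reagent. From background knowledge of the study, ERbeta is taken as an artificial β-sheet protein sent into the ER and not as estrogen receptor beta; its own level was not analysed here. The labels do not say what share of cells took up plasmid or whether replicates were grown separately, and the p-values therefore rest on a spread that may be only technical.

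The J domain carries a conserved histidine-proline-aspartate motif that contacts Hsp70. Class A proteins resemble bacterial DnaJ, with a glycine- and phenylalanine-rich stretch and a zinc-binding region. Class B proteins lack the zinc-binding region, and class C proteins share only the J domain and mostly serve 1 place or task in the cell, such as clathrin uncoating, mitochondrial import, ribosomes or splicing. In the cytosol, class A and B members work with HSPA8 (HSC70) and with the exchange factors of the BAG and Hsp110 families to refold proteins, prevent aggregation or pass them on to degradation.

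Library totals were 16531368, 15821501 and 13149304 reads in ERbeta 1, 2 and 3. They were 6833442, 27101644 and 10806375 reads in EV_Ctrl 1, 2 and 3. The filter on low counts was passed by 16243 genes. Of the 4 genes chosen as expressed in HEK293T, all were present in every library, their summed level being 983 to 1145 CPM (read counts scaled to the size of the library). Most of that sum was VIM, at 827 to 957 CPM. NEFL was at 129 to 162, NEFM at 19.2 to 25.4 and PAX2 at 3.65 to 12.1 CPM. Of 13 markers of fibroblasts, leukocytes, hepatocytes and epithelial tumour lines, 4 passed the filter, with COL1A1 highest at 12.8 to 32.9 CPM, and COL1A2, CD3E, KRT5 and KRT14 at 0 reads. The 5 fibroblast markers summed to 17.4 to 24.6 CPM in ERbeta and 22.4 to 36.2 CPM in EV_Ctrl, and the part of other cells in the results was not tested. The libraries did not separate by group alone. On the first principal component (60.8% of the variance) EV_Ctrl 2 lay at -13.9, next to ERbeta 1 and 2 at -16.3 and -13.9. EV_Ctrl 1 and 3 lay at 44.7 and 41.5 and ERbeta 3 at -42.1. EV_Ctrl 1 and 3 were also the smallest libraries and EV_Ctrl 2 the largest. The part of depth in this pattern was not tested beyond the fit on thinned counts given at the end.

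Of the 37 J-domain genes, 32 passed the filter, 3 of class A, 6 of class B and 23 of class C. The other 5 were DNAJA4 of class A and DNAJB3, DNAJB7, DNAJB8 and DNAJB13 of class B. DNAJB13, a protein of the axoneme of cilia and sperm tails, had 45 reads in all, between 1 in ERbeta 3 and 14 in ERbeta 1. The remaining 4 had 0 of 90243634 reads, which allows a pooled level of up to 0.0332 CPM (3 counts, counting error only). DNAJB3 is annotated as a transcribed processed pseudogene. Per kilobase of exon, the scale used here to set genes against each other, DNAJA1 was highest of the 32 at 125 CPM per kilobase over all libraries. It was followed by DNAJC8 (53.8), a splicing-associated protein, DNAJC9 (23.4), a histone chaperone, DNAJC7 (21.0), a scaffold between Hsp70 and Hsp90, and DNAJA2 (19.7). The libraries of DNAJC9 and DNAJC7 overlapped on that scale, as did those of DNAJC7, DNAJA2, DNAJC11 (19.2) and DNAJC5 (17.8). In class B the highest was DNAJB12 at 9.97, then DNAJB2 at 8.11 and DNAJB6 at 6.45. That order depends on the exon length used, all annotated exons together, 14981 bases for DNAJB6 and 5649 for DNAJB12. In CPM without division by length, DNAJB6 (means 103 in ERbeta and 90.8 in EV_Ctrl) was above DNAJB12 (57.2 and 55.5). DNAJC28 (1.52) and DNAJC15 (1.26), assigned to mitochondria, were lowest. Of the 32 genes, 15 share exon bases with another gene, 11 of them with a gene on the opposite strand, so their counts are uncertain. Over 10% of the exon length was shared with a gene on the opposite strand by 5 (DNAJC9, DNAJC11, DNAJC14, DNAJC17 and DNAJC30), and with one on the same strand by DNAJC4, DNAJC14 and DNAJC25. The reads behind each gene numbered from 341 for DNAJC28 to 31999 for DNAJA1.

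**Figure D1:**
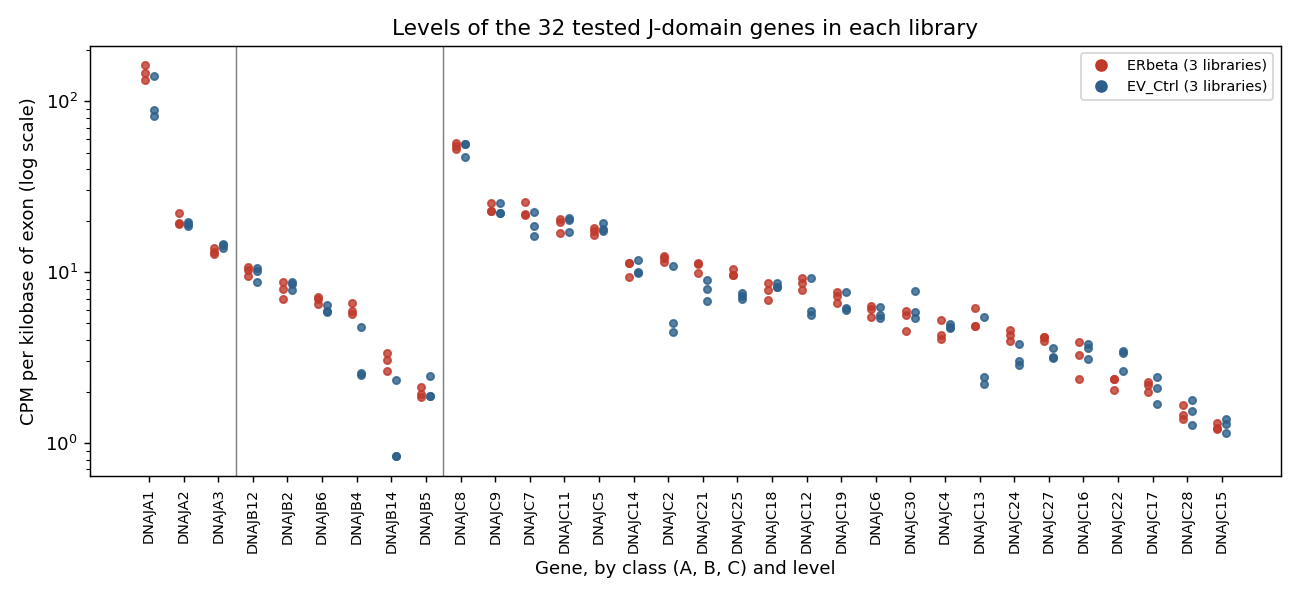
Level of each of the 32 tested J-domain genes (x axis, grouped by class A, B and C and ordered by level) in CPM per kilobase of exon on a log axis, 1 point per library, red for ERbeta and blue for EV_Ctrl. DNAJA1 at 125 CPM per kilobase and DNAJC8 at 53.8 stood above the other genes, and the widest spread among EV_Ctrl points was in DNAJB14, DNAJB4, DNAJC2 and DNAJC13.

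The single comparison of the design, ERbeta against EV_Ctrl, asks how transcripts differ between cells given the ERbeta plasmid and cells given the empty vector. No J-domain gene reached an adjusted p under 0.05. The quasi-likelihood test of edgeR, adjusted by Benjamini-Hochberg over the whole table, gave a smallest adjusted p of 0.397 among the 32, and 0 of the 16243 genes tested passed (0.0%). DESeq2 called 0 of the 32 (71 genes of all, 0.438%) and limma-voom 0 (0.00616% of all). At an unadjusted p under 0.05, 8 J-domain genes were higher in ERbeta (25.0%, against 9.54% of all genes) and 1 was lower (3.13%, against 2.88%). Levels did not overlap between groups for 9 genes. In 8 of them all ERbeta libraries were higher (25.0%, against 10.2% of all genes) and in 1, DNAJC22, all were lower (3.13%, against 8.48%). The median GC content of the 32 genes' transcripts was 44.3%, against 48.5% for all genes, and genes of low GC content were higher in ERbeta across the whole table, as described below. The part of GC content in these counts was not tested beyond the correction given there. In bulk RNA, fewer cells that express a gene and less RNA per cell cannot be told apart.

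The median log2 fold change was 0.09 over the 3 tested genes of class A, 0.11 over the 6 of class B and 0.03 over the 23 of class C, against -0.01 over all genes. The within-group spread of the class medians between libraries was 0.08, 0.04 and 0.05 (SD on the log2 scale). Positive fold changes were found for 2 of 3, 4 of 6 and 14 of 23 genes, against 48.3% of all genes. With library size in place of TMM, which moves the median of all genes to -0.10, the class medians were -0.01, 0.01 and -0.06. With GC correction they were -0.02, 0.18 and 0.002. The difference between classes was not tested. Within class B and class C, single genes ran from -0.08 to 1.12 and from -0.47 to 0.81.

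**Figure D2:**
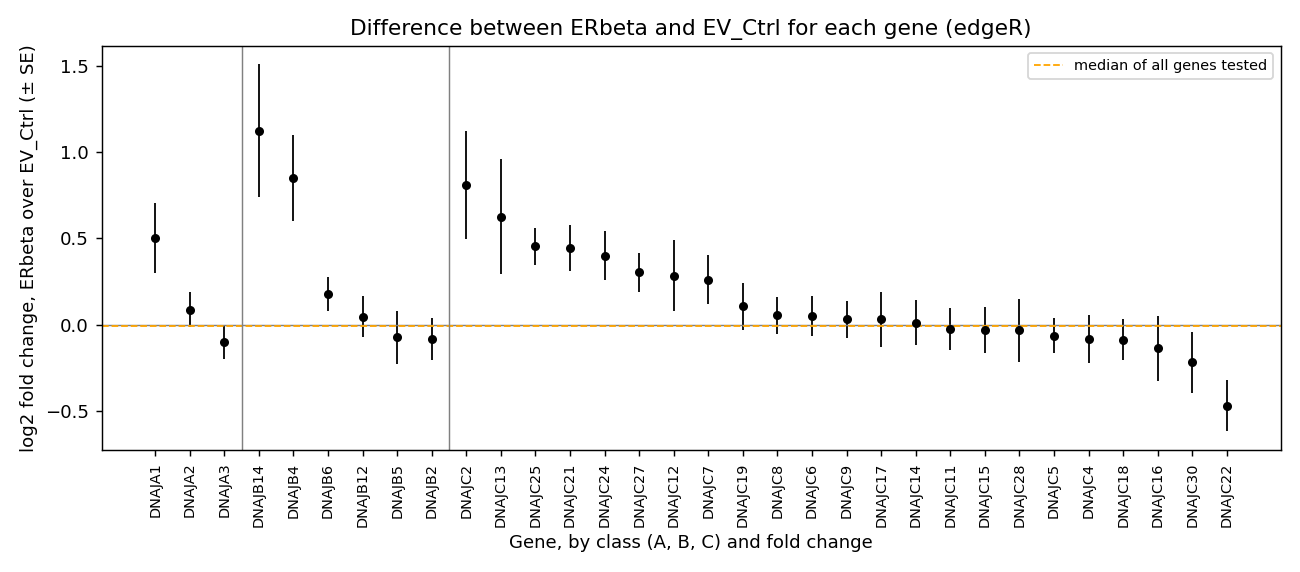
The log2 fold change of ERbeta over EV_Ctrl (y axis, points, with the standard error as bars) for each tested J-domain gene, ordered within class A, B and C. DNAJB14 at 1.12 and DNAJB4 at 0.85 had the largest values and the dashed line marks the median of all genes tested, -0.01.

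The cytosolic genes of class A encode general-purpose partners of HSPA8, and DNAJA3 is mitochondrial. DNAJA1 lies on chromosome 9 (33025211 to 33039907, plus strand, GRCh38). It was at 364, 400 and 441 CPM in ERbeta 1, 2 and 3 and at 242, 383 and 224 CPM in EV_Ctrl 1, 2 and 3. The groups overlapped, because EV_Ctrl 2 lay within the ERbeta range while the other controls lay below it. Its log2 fold change was 0.50 ± 0.20 (standard error), with an adjusted p of 0.397 in edgeR's test, and it was 0.79 without EV_Ctrl 2 (adjusted p 0.00107), 0.07 without EV_Ctrl 1 and 3 and 0.28 ± 0.14 with GC correction. DNAJA2, its close relative in the cytosol, was at 96.5, 98.6 and 113 CPM in ERbeta and 96.7, 94.2 and 98.8 CPM in EV_Ctrl, so that only ERbeta 3 stood out. Its fold change of 0.09 ± 0.10 turned to -0.01 with library size only and to -0.19 with GC correction. DNAJA3, the mitochondrial member known as Tid1, was at 97.9, 92.2 and 90.5 against 103, 97.1 and 101 CPM, or -0.10 ± 0.09. The cytosolic pair differed in the controls: DNAJA1 was low in EV_Ctrl 1 and 3, and DNAJA2 was at about the same level in all 3.

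Cytosolic class B covers DNAJB4 and DNAJB5, relatives of the heat-inducible DNAJB1, and DNAJB2 and DNAJB6, which keep aggregation-prone proteins soluble. DNAJB4 (chromosome 1, 77979175 to 78017964, plus strand) was at 21.5, 22.3 and 25.0 CPM in ERbeta and at 9.70, 17.9 and 9.49 CPM in EV_Ctrl. All ERbeta libraries were higher than all controls, with EV_Ctrl 2 nearest to them. The log2 fold change was 0.85 ± 0.25 (adjusted p 0.397, edgeR), 1.26 without EV_Ctrl 2 (adjusted p 0.000254), 0.36 without EV_Ctrl 1 and 3, and 0.21 with GC correction. Its transcript has the lowest GC content of the 32, at 33.1%. DNAJB6, a strong suppressor of amyloid and polyglutamine aggregation, was at 97.7, 106 and 104 CPM in ERbeta and 88.0, 95.9 and 88.4 CPM in EV_Ctrl. The groups did not overlap, yet the gap between the closest libraries was small, and the fold change was 0.18 ± 0.10 (adjusted p 0.455, edgeR). With GC correction it was 0.28 ± 0.11, with library size only 0.08 and without EV_Ctrl 1 and 3 0.10, and it was 0.15 to 0.23 when any single library was left out. Pseudogenes of DNAJB6 held 295 reads against 8704 for the gene itself, and how reads matching several copies were counted is not given in the sources used here. DNAJB2, enriched in neurons and able to bind ubiquitin chains, was at 51.3, 46.6 and 40.9 against 49.9, 46.0 and 51.5 CPM, or -0.08 ± 0.12. DNAJB5 overlapped between groups as well, at 10.99 to 12.5 and 11.05 to 14.5 CPM.

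DNAJB6 is the one J-domain gene with a perfect heat shock element of 3 units upstream of its RefSeq start. The element is the binding sequence of the heat shock factors, and the letters searched were GAANNTTC followed, after 2 bases of any kind, by GAA on either strand in the 250 bases before each start. It was found for 1 of the 34 J-domain genes with a window in RefSeq (GRCh38.p14). These genes have 44 windows, and over all genes the share is per window, 0.441% of 35116. The shorter 2-unit form GAANNTTC, which the longer motif contains, was in windows of DNAJA1, DNAJA4, DNAJB6 and DNAJB7 and in 5.78% of all windows. The DNAJB6 window is shown because this gene had no overlap between groups and holds that element. It runs from 230 to 39 bases before the start, with bases annotated as exons left out and the element in capitals, 131 to 119 bases before the start:
DNAJB6, chr7:157336774-157336965, plus strand: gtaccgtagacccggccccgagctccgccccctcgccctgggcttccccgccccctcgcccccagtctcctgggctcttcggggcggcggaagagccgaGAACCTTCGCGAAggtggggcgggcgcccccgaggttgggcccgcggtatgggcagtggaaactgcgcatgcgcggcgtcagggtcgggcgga
A match describes letters in this window only.

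The ER-located genes outside the BiP cycle are DNAJB12 and DNAJB14, which sit in the ER membrane with the J domain in the cytosol and recruit HSPA8 to membrane proteins for degradation, together with DNAJC14, DNAJC16, DNAJC18 and DNAJC25. All 6 passed the filter and their median log2 fold change was 0.03. DNAJC25, a membrane-spanning J protein on chromosome 9 (111631352 to 111654351, plus strand), had the smallest unadjusted p of the 32 genes. It was at 27.1, 24.9 and 25.0 CPM in ERbeta and at 18.7, 19.4 and 18.0 CPM in EV_Ctrl. Here EV_Ctrl 2 lay with the other controls and the groups were well apart. The log2 fold change was 0.45 ± 0.11 (unadjusted p 0.00326, adjusted p 0.397, edgeR), 0.49 without EV_Ctrl 2 (adjusted p 0.0382) and 0.41 without EV_Ctrl 1 and 3. With GC correction it was 0.20 ± 0.12, its transcript having a GC content of 41.4%. It shares 358 exon bases with the read-through gene DNAJC25-GNG10, which had 0 reads in the table. How reads on shared bases were counted is not given in the sources used here. The 0 therefore does not show whether the read-through is expressed.

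DNAJB14 (chromosome 4, 99896248 to 99946726, minus strand) had the largest fold change. It was at 40.0, 34.6 and 43.7 CPM in ERbeta and at 10.9, 30.7 and 10.97 CPM in EV_Ctrl. The groups did not overlap, but EV_Ctrl 2 lay near ERbeta and far from the other controls. The log2 fold change was 1.12 ± 0.39 (adjusted p 0.397, edgeR), 1.85 without EV_Ctrl 2 (adjusted p 2.83e-05), 0.36 without EV_Ctrl 1 and 3, and 0.55 ± 0.19 with GC correction. DNAJB12, its paralog, was at 60.4, 57.8 and 53.3 CPM in ERbeta and 57.6, 49.2 and 59.6 CPM in EV_Ctrl. The groups overlapped and the fold change was 0.05 ± 0.12, with a sign that turned with library size only (-0.05). The paralogs differ in transcript GC content, 34.3% for DNAJB14 and 56.5% for DNAJB12. DNAJC14, DNAJC16 and DNAJC18 overlapped between groups, with fold changes of -0.14 to 0.01.

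DNAJC25 is the one J-domain gene whose window holds TGACGTG, the core of the site bound by the unfolded protein response factors XBP1 and ATF6. The core was in 1.68% of all windows, a share per window, and the J-domain genes have 44 windows. The full ER stress element (CCAAT, 9 bases of any kind, CCACG) was in 0 windows of J-domain genes and 0.074% of all, and TGATGCAA, a core of the amino acid response element read by ATF4 and CHOP, in 0 and 0.772%. Both strands were searched. With GC correction the fold change was 0.20 ± 0.12 for DNAJC25 and 0.55 ± 0.19 for DNAJB14. The stretches below are shown to set the ER gene with the smallest uncorrected, unadjusted p (edgeR) beside the one with the largest fold change. For DNAJC25 they are the last 44 bases before the start, with the core in capitals 18 to 12 bases before it. For DNAJB14 they are bases 250 to 109 before the start, with none of these motifs and so no capitals. Bases annotated as exons were left out of each:
DNAJC25, chr9:111631290-111631333, plus strand: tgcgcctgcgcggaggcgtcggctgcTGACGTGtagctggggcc
DNAJB14, chr4:99946727-99946868, minus strand: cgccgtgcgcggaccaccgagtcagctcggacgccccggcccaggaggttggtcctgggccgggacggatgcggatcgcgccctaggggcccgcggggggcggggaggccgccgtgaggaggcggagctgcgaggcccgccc
The table of all genes gives no measure of binding at these stretches.

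The genes tied to ribosomes and translation are DNAJC2, DNAJC21 and DNAJC24. All 3 were higher in every ERbeta library than in any control, as were 10.2% of all genes, and their median GC content was 39.2%, against 48.5% for all genes. DNAJC2 (MPP11), which forms the ribosome-associated complex with HSPA14 and guides Hsp70 to nascent chains, lies on chromosome 7 (103312474 to 103344873, minus strand). It was at 81.5, 78.8 and 75.4 CPM in ERbeta and at 33.0, 70.9 and 29.3 CPM in EV_Ctrl. EV_Ctrl 1 and 3 were low, and EV_Ctrl 2 was just under ERbeta. The log2 fold change was 0.81 ± 0.31 (adjusted p 0.397, edgeR), 1.35 without EV_Ctrl 2 (adjusted p 6.62e-05), 0.15 without EV_Ctrl 1 and 3, and 0.69 ± 0.26 with GC correction. DNAJC2 shares 9.57% of its exon bases with PMPCB on the opposite strand, and the strand setting of the counting is not given in the sources used here.

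DNAJC21, a factor of large ribosomal subunit assembly on chromosome 5 (34929559 to 34958964, plus strand), was at 107, 93.9 and 108 CPM against 64.6, 85.9 and 76.5 CPM. EV_Ctrl 2 was the highest control but stayed under all ERbeta libraries. The fold change was 0.44 ± 0.13, and 0.02 ± 0.11 with GC correction. DNAJC24, which is needed for the diphthamide modification of elongation factor eEF2, lies on chromosome 11 (31369840 to 31431849, plus strand). It was at 32.4, 30.2 and 34.6 CPM in ERbeta and 22.9, 28.8 and 21.7 CPM in EV_Ctrl. As in DNAJC21, EV_Ctrl 2 was the highest control and lay under all ERbeta libraries. Its fold change of 0.40 ± 0.14 turned to -0.14 with GC correction. In edgeR's test both had an adjusted p of 0.397. Without EV_Ctrl 2 the fold change was 0.55 for both DNAJC21 (adjusted p 0.0176) and DNAJC24 (adjusted p 0.0205), and without EV_Ctrl 1 and 3 it was 0.27 and 0.17. The median over the 3 genes was 0.44, and 0.02 with GC correction.

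**Figure D3:**
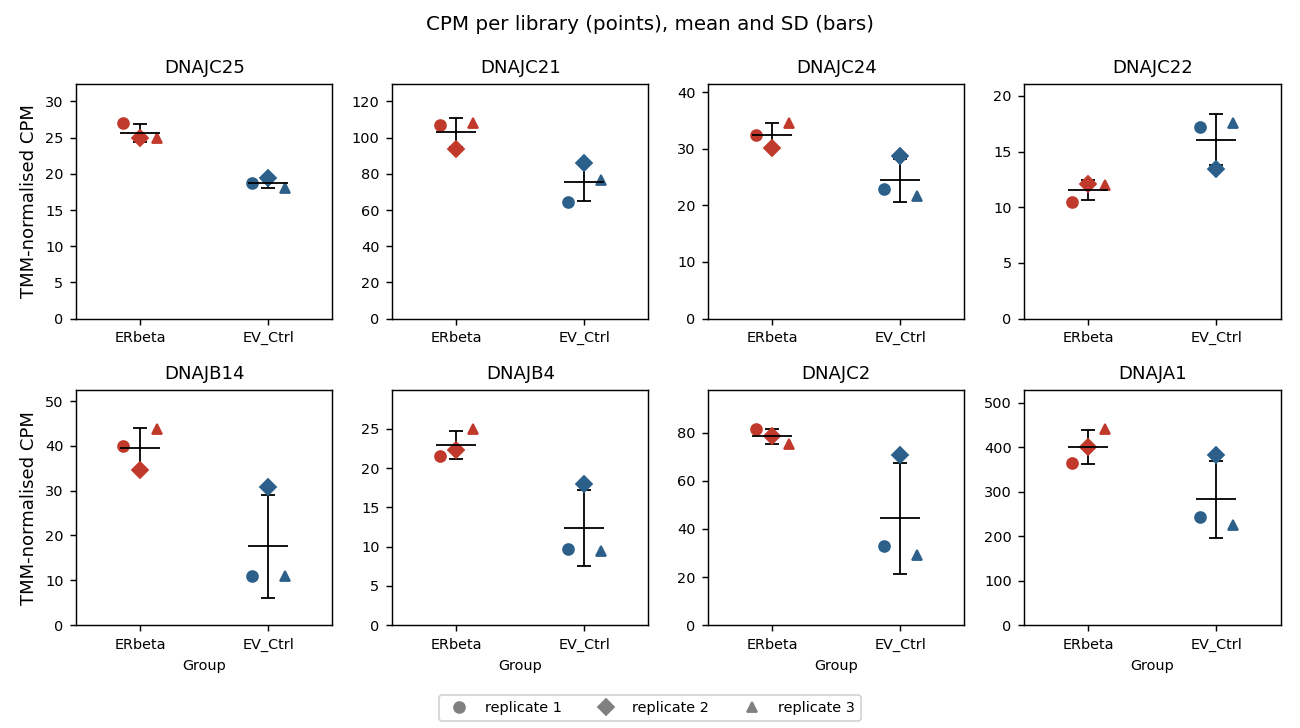
TMM-normalised CPM in each library (points; circle, diamond and triangle for replicates 1, 2 and 3) with the mean and SD of each group (bars), axes starting at 0. In DNAJC25 the 3 controls sit together at 18.0 to 19.4 CPM, whereas in DNAJB14, DNAJB4, DNAJC2 and DNAJA1 the diamond of EV_Ctrl 2 lies near the ERbeta points.

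Vesicle and endosome genes differed among themselves. DNAJC27, a Rab-like GTPase with a J domain, was at 22.1, 23.4 and 23.5 CPM in ERbeta and 17.9, 20.2 and 17.8 CPM in EV_Ctrl, or 0.30 ± 0.11 (0.11 with GC correction, 0.19 without EV_Ctrl 1 and 3). The groups did not overlap and EV_Ctrl 2 was again the highest control. DNAJC13 (RME-8, a regulator of endosomal sorting), added to the named genes once its values were known, stood at 46.5, 46.6 and 59.2 against 23.4, 52.6 and 21.3 CPM. Here EV_Ctrl 2 lay inside the ERbeta range, and the fold change of 0.63 ± 0.33 was 1.19 without EV_Ctrl 2 (adjusted p 0.000354) and -0.05 without EV_Ctrl 1 and 3. DNAJC5, the cysteine string protein of secretory vesicles, was at 91.8, 87.6 and 96.2 against 94.6, 91.4 and 102 CPM, or -0.07 ± 0.10. It and DNAJC6 (auxilin, which uncoats clathrin vesicles; 38.0 to 44.2 and 37.7 to 43.4 CPM) overlapped between groups.

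Of the mitochondrial genes all 7 passed the filter, all overlapped between groups, and fold changes ran from -0.22 to 0.11 with a median of -0.03. DNAJC19, the inner-membrane J protein of the protein import motor, was at 23.8, 27.2 and 26.1 CPM in ERbeta and 22.2, 27.5 and 21.6 CPM in EV_Ctrl. EV_Ctrl 2 was the highest of all libraries, and the fold change of 0.11 ± 0.14 turned to -0.33 ± 0.13 with GC correction (unadjusted p 0.0303, adjusted p 0.465, edgeR). Pseudogenes of DNAJC19 held 106 reads against 2266 for the gene. DNAJC11, of the complex that shapes mitochondrial cristae, was at 86.4 to 103 and 87.3 to 105 CPM. Mitochondrial HSPA9, the Hsp70 these proteins serve, is given below.

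The nuclear genes DNAJC8, DNAJC9 and DNAJC17 had fold changes of 0.03 to 0.05. DNAJC8 was at 151, 165 and 158 CPM in ERbeta and 161, 161 and 135 CPM in EV_Ctrl, or 0.05 ± 0.11, with a sign that turned under several settings (-0.04 with library size only). DNAJC7 was at 201, 205 and 239 against 175, 212 and 152 CPM, or 0.26 ± 0.14 (adjusted p 0.452, edgeR). EV_Ctrl 2 again lay inside the ERbeta range, and DNAJC7 was at 0.40 without it and 0.03 without EV_Ctrl 1 and 3.

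DNAJC22 was the only J-domain gene lower in all ERbeta libraries. It encodes a membrane J protein whose fly homolog acts in endocytosis, and it lies on chromosome 12 (49346917 to 49357546, plus strand). It was at 10.5, 12.05 and 12.03 CPM in ERbeta and at 17.2, 13.5 and 17.6 CPM in EV_Ctrl. EV_Ctrl 2 was once more the control nearest to ERbeta. The log2 fold change was -0.47 ± 0.15 (adjusted p 0.397, edgeR), -0.59 without EV_Ctrl 2 (adjusted p 0.0258), -0.22 without EV_Ctrl 1 and 3 and -0.39 ± 0.13 with GC correction. DNAJC12, a co-chaperone of aromatic amino acid hydroxylases, was at 16.6 to 19.5 CPM in ERbeta and 11.8 to 19.6 CPM in EV_Ctrl.

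Across the 32 genes EV_Ctrl 2 was nearer to the ERbeta mean than to the mean of EV_Ctrl 1 and 3 for 26 (81.3%), against 64.0% of all genes, on log2 CPM. Without EV_Ctrl 2, edgeR called 10 J-domain genes. The 9 higher were DNAJB14, DNAJC2, DNAJB4, DNAJC13, DNAJA1, DNAJC21, DNAJC24, DNAJC12 and DNAJC25 (13.5% of all genes were called higher), and the 1 lower was DNAJC22 (0.775% of all). DNAJC13 and DNAJC12 are named here to complete that count. Without EV_Ctrl 1 and 3 instead, 0 were called, as were 0 of all genes. The genes with all ERbeta libraries higher numbered 14 without EV_Ctrl 2 (25.8% of all genes) and 10 without EV_Ctrl 1 and 3 (19.8% of all genes), since fewer controls overlap less often.

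**Figure D4:**
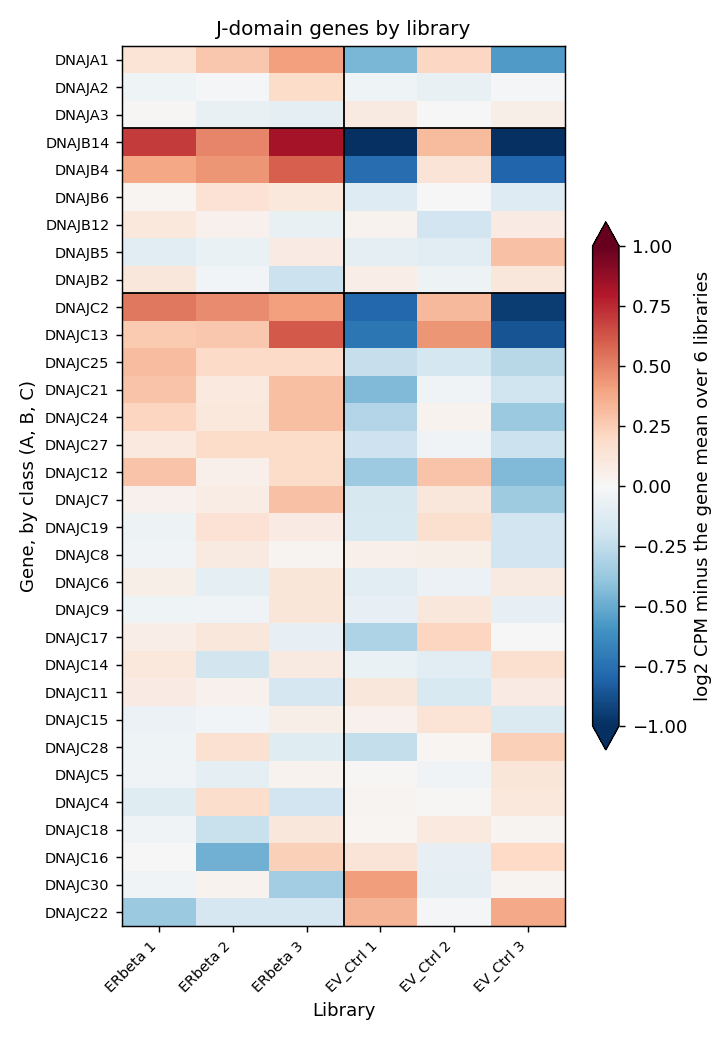
Each row is a tested J-domain gene, by class and fold change, and each column a library; colour is the log2 CPM minus the gene's mean over the 6 libraries, with colours ending at -1 and 1. DNAJB14, DNAJB4, DNAJC2, DNAJC13 and DNAJA1 are low in EV_Ctrl 1 and 3 and not in EV_Ctrl 2, and DNAJC25 is low in all 3 controls.

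GC content moved with the differences. Over the 32 genes Spearman's rho between the GC content of the longest transcript and the log2 fold change was -0.62, and over 16091 genes -0.61, which are descriptions across genes that share the same 6 libraries. Of the 17 J-domain genes under 45% GC, 14 had positive fold changes, with a median of 0.30 (81.2% and 0.26 over all genes under 45%). Of the 15 at or above 45%, 6 were positive, with a median of -0.07 (29.2% and -0.10 over all genes). With a loess correction for GC content per library, rho was 0.15 over the 32 genes and 0.02 over all genes, and 0 of the 32 were called (0.0559% of all genes). At an unadjusted p under 0.05, 3 were then higher, DNAJC2, DNAJB14 and DNAJB6 (5.67% of all genes), and 3 lower, DNAJC22, DNAJC15 and DNAJC19 (4.86% of all genes). Corrected fold changes were positive for all 6 tested class B genes, 1 of 3 in class A and 12 of 23 in class C. Over all genes 47.4% were positive. In class B, DNAJB5 (0.03 ± 0.15) and DNAJB2 (0.04 ± 0.09) had corrected values smaller than their standard errors. Without EV_Ctrl 1 and 3 and without correction, rho was -0.21 over the 32 genes and -0.29 over all genes.

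**Figure D5:**
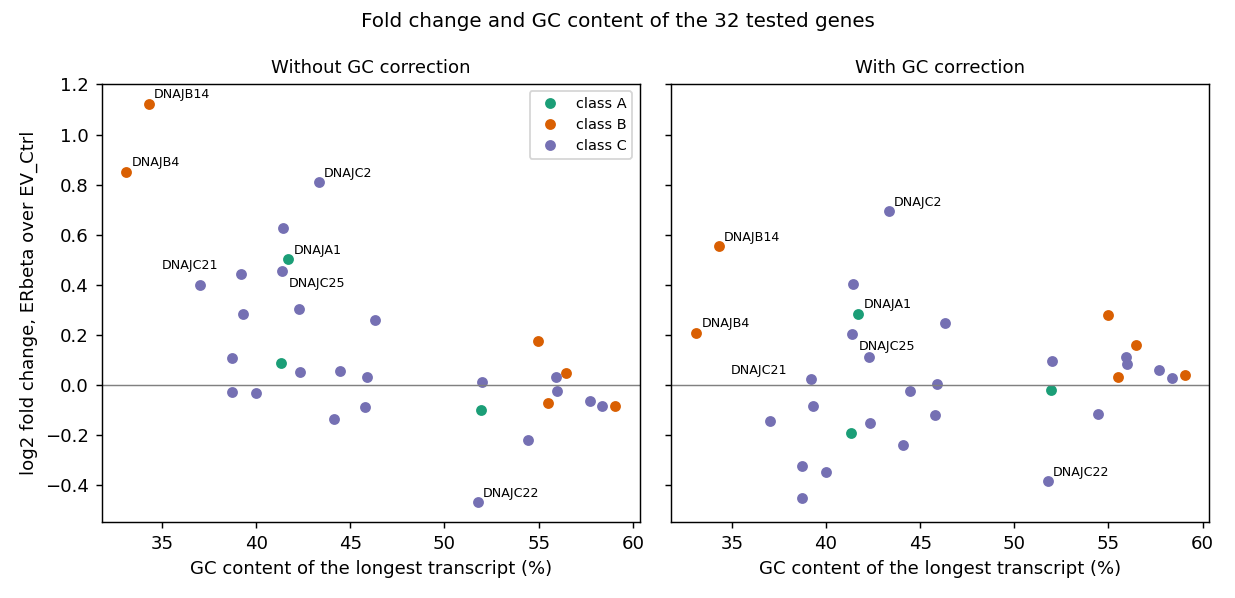
Log2 fold change of ERbeta over EV_Ctrl (y axis) against the GC content of the longest transcript (x axis, %) for the 32 tested J-domain genes, coloured by class, without (left) and with (right) the correction for GC content. On the left low-GC genes lie higher (rho -0.62), and on the right the relation is 0.15 while DNAJC2 at 0.69 and DNAJB14 at 0.55 stay at the top.

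The Hsp70s, Hsp110s, exchange factors and J proteins with other names that work with these genes formed a list of 30, of which 29 were tested. Of these 29, 0 passed edgeR's test over all genes. At an unadjusted p under 0.05 (edgeR), 5 were higher (17.2%, against 9.54% of all genes) and 0 were lower (against 2.88% of all genes). With GC correction 3 were higher (5.67% of all genes) and 0 were lower (4.86% of all genes). Of the 29, 20 had positive fold changes (69.0%, against 48.3% of all genes). Their median was 0.07, against -0.01 over all genes. HSPA8, the constitutive cytosolic Hsp70, was at 1180, 1193 and 1321 CPM in ERbeta and 1306, 1272 and 1166 CPM in EV_Ctrl, or -0.02 ± 0.10. The groups overlapped for this main partner. HSPA9, the mitochondrial Hsp70, was at 447 ± 41.3 against 374 ± 39.8 CPM (SD, n = 3 each), or 0.26 ± 0.12. It was at 0.35 without EV_Ctrl 2 and 0.10 without EV_Ctrl 1 and 3. HSPH1, an Hsp110 exchange factor, was at 157 ± 18.0 against 98.9 ± 51.2 CPM, or 0.66 ± 0.32. With GC correction HSPA9 was at 0.13 ± 0.09 and HSPH1 at 0.35 ± 0.20. In HSPH1 EV_Ctrl 2 was at 158 CPM, inside the ERbeta range, beside 75.5 and 63.6 CPM in EV_Ctrl 1 and 3, and the fold change was 1.18 without EV_Ctrl 2 and -0.0066 without EV_Ctrl 1 and 3. BAG3, an exchange factor of selective autophagy, was at 0.08 ± 0.14, and the inducible HSPA1A at -0.07 ± 0.15.

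The partners with the smallest p-values were HSPA13, HSPA6, SEC63 and BAG2, none of which passed. HSPA13, an Hsp70-like ATPase of the microsomes, was at 141, 126 and 195 CPM in ERbeta and 40.5, 110 and 40.7 CPM in EV_Ctrl, or 1.26 ± 0.40 (0.69 ± 0.19 with GC correction). It was 1.93 without EV_Ctrl 2 and 0.48 without EV_Ctrl 1 and 3. SEC63, the J protein of the ER translocon, was at 0.68 ± 0.24, at 1.03 without EV_Ctrl 2, at 0.17 without EV_Ctrl 1 and 3 and at 0.31 with GC correction. BAG2, an inhibitor of the ligase CHIP, was at 0.41 ± 0.17, at 0.17 without EV_Ctrl 1 and 3 and at -0.14 with GC correction. HSPA6, a strictly inducible Hsp70, was at 1.17 to 1.85 CPM in ERbeta and 0.452 to 1.04 CPM in EV_Ctrl, or 1.11 ± 0.37. These levels are near the floor of the filter on low counts, and EV_Ctrl 2 was the lowest library. The fold change was 0.67 without EV_Ctrl 2 and 1.74 without EV_Ctrl 1 and 3. It was 1.22 ± 0.36 with GC correction and 0.65 with counts thinned to the smallest library. Of the genes left out by the choice of members, DNAJB9 was at 1.13 ± 0.22, DNAJC10 at 0.80 ± 0.32, DNAJC3 at 0.70 ± 0.16, DNAJB11 at 0.48 ± 0.10, DNAJC1 at 0.05 ± 0.11 and DNAJB1 at -0.03 ± 0.10. Their median was 0.59, against 0.05 over the 32 J-domain genes described here, and no test of that difference was made. With GC correction these medians were 0.22 and 0.03, with DNAJB11 at -0.05, and the median GC content was 40.2% against 44.3%.

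The authors' deposited table gives an adjusted p for 31 of the J-domain genes. DNAJC24 was called higher there (log2 fold change 0.34, adjusted p 0.0425), where 3.35% of all genes were, and DNAJC22 lower (-0.40, adjusted p 0.0482), where 0.43% of all genes were. A further 5 genes had adjusted p-values between 0.05 and 0.1 in the authors' deposited table: DNAJA1 (0.0578), DNAJC25 (0.0593), DNAJC21 (0.0646), DNAJB4 (0.0676) and DNAJC27 (0.0742). For 8079 of the 33813 genes with 0 reads in all 6 libraries, DNAJA4 among them, the authors' deposited table gives a mean above 0, so its values do not rest on these 6 columns alone. Large fold changes were smaller there. DNAJB14 was at 0.44, DNAJB4 at 0.52 and DNAJC2 at 0.45, against 1.15, 0.86 and 0.81 with DESeq2 on these libraries. The reason was not tested.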

How the data were processed

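RNA was measured by stranded poly(A) sequencing in 3 ERbeta and 3 EV_Ctrl libraries, per the labels. The submitters' processing notes name the build hg38 and the tools TopHat2, featureCounts and DESeq2. Versions, annotation and strand setting: not given in the sources used here. The deposited table holds the authors' raw read counts per gene. A second deposited table holds the authors' mean signal, log2 fold change, standard error and statistic (scores) and p-values, per the file headers; it entered no test.

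Symbols were found for 40995 of 64299 identifiers. Members, lists and tests were chosen with earlier results of these data known. Genes were kept with filterByExpr (minimum count 10, total 15), normalised by TMM and tested with edgeR 4.0.16 (glmQLFit, glmQLFTest) in R 4.3.3, group as the only term, Benjamini-Hochberg over 16243 genes, threshold 0.05. The kept genes hold at least 99.8% of each library's reads. Standard errors come from the F statistic. Levels per kilobase use the union of GENCODE 29 exons (GRCh38). GC correction used a loess curve (span 0.5) per library as an offset, with a value for 99.1% of genes. Named genes were all class A genes, those of classes B and C with an unadjusted p under 0.05 (at most 12), the highest per kilobase in each class, 8 chosen by function, 5 partners and the 4 partners with the smallest p. Alternatives were other normalisations, filters and tests (DESeq2 1.42.0, limma-voom 3.58.1), a replicate block, thinning to the smallest library, and leaving out libraries. Where 1 EV_Ctrl library is left, its spread is taken to equal that of ERbeta. Within groups no pair of libraries agreed within counting noise (chi-square per degree of freedom 4.74 to 38.7), so all counted separately. Promoter windows are from RefSeq (GRCh38.p14), with 3 members having none. The steps were tested on simulated counts, and figures drawn with matplotlib 3.10.9.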

Additional observations from a re-analysis of the deposited data

How the results depend on the processing

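The labels number the replicates 1 to 3 in both groups, but samples of the same number did not deviate together (correlations 0.233, -0.136 and -0.152), and not every sample correlated best with its own number. With the replicate block 0 genes and 0 J-domain genes were called, 20 fold changes were positive and the class medians were 0.08, 0.11 and 0.05; the block changed no call. Over all genes 0 calls became 51 without a filter, 71 with DESeq2, 1 with limma-voom, 9 with GC correction and 0 to 2324 when single libraries were left out. J-domain calls then ran from 0 to 10 and partner calls from 0 to 8, all of them without EV_Ctrl 2. Positive J-domain genes numbered 13 with library size only. Non-overlapping higher genes numbered 14 without EV_Ctrl 2, a choice made after seeing the data. The class A median (0.09) was -0.011 with library size only, -0.022 with GC correction and -0.023 with the block and GC correction, and 0.015 (without ERbeta 3) to 0.12 leaving out single libraries. The class B median (0.11) was 0.015, 0.18 and 0.19 under these settings. It was 0.045 without a filter, 0.22 without EV_Ctrl 1 and 3 and 0.074 to 0.17 leaving out single libraries. These medians are over the genes kept under each setting, which were not always the same. Over the 6 class B genes of the main fit it was 0.16 without EV_Ctrl 1 and 3. The class C median (0.03) was -0.056 with library size only, 0.11 with counts thinned to the smallest library and 0.010 to 0.10 leaving out single libraries. The causes were not tested. Signs turned as follows. With library size only DNAJA2 was at -0.011, DNAJB12 at -0.053, DNAJC8 at -0.040 and BAG3 at -0.015. With thinned counts DNAJB12 was at -0.067 and DNAJC8 at -0.023. With GC correction, and then with the block as well, DNAJA2 was at -0.19 and -0.19, DNAJC24 at -0.14 and -0.15, DNAJC8 at -0.026 and -0.024, DNAJB2 at 0.039 and 0.037, DNAJC5 at 0.060 and 0.053, DNAJC19 at -0.33 and -0.33, HSPA1A at 0.067 and 0.070 and BAG2 at -0.14 and -0.13. Without EV_Ctrl 1 and 3 DNAJC8 was at -0.022, DNAJB2 at 0.013, DNAJC5 at 0.010, DNAJC19 at -0.10, HSPA1A at 0.23, HSPH1 at -0.0066 and DNAJC13 at -0.049. Leaving out single libraries DNAJB12 ran from -0.028 to 0.10, DNAJC8 from -0.026 to 0.10, HSPA8 from -0.072 to 0.015, HSPA1A from -0.20 to 0.0026 and BAG3 from -0.019 to 0.17. Of the remaining values for named genes 452 kept their sign and side of the threshold, and 13 passed it without EV_Ctrl 2. Depth limits the lowest genes most, DNAJC28 resting on 341 reads.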
